A study of Mus musculus with 4 samples.

Results

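Nmt2 and Nmt1 are the 2 mouse genes for N-myristoyltransferase, the enzyme that attaches the fatty acid myristate to proteins. They were taken as the entries with these symbols in a table of 49568 gene symbols, of which 10860 were abundant enough to be tested, both Nmt genes among them. The series compared, by RNA sequencing of total RNA from mouse, purified migrasomes (2 libraries) with cytosol (2 libraries), to learn which mRNAs migrasomes carry. A migrasome is a vesicle that grows on the thin fibres trailing behind a cell as it moves, and that can be released with its contents. The sources used here give no strain, genotype, treatment or cell type, and the groups are told apart by the sample type in the labels alone. Separate cultures or preparations are not named for the libraries of a group, so any p-value reflects the spread among these samples alone, and that spread may be technical.

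N-myristoyltransferases take myristate from myristoyl-CoA and join it to the glycine at the start of a protein, usually while the ribosome is still making that protein and after the first methionine has been removed. The lipid helps proteins such as Src family kinases, ARF GTPases and G protein alpha subunits to sit on membranes. Nmt1 is required for early mouse development, and the enzymes from both genes act on overlapping sets of proteins. The pair was chosen because of the size of the Nmt2 difference in these same libraries, so the differences of both genes between migrasome and cytosol are given as descriptions, with no test.

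The migrasome libraries held 5228713 and 5171092 reads assigned to genes, and the cytosol libraries 7529136 and 8608369. Levels are deposited normalised read counts, in which 1 read is worth 1.41 and 1.32 in migrasome and 0.776 and 0.686 in cytosol. Fibroblast markers were detected in all 4 libraries, 7 of 7 of them passing the filter. Their summed level in replicates 1 and 2 was 35522 and 29376 in migrasome, and 30942 and 24918 in cytosol. Most of that sum was Vim, at 33076 and 26052 in migrasome and 16385 and 14221 in cytosol, and Thy1 was also higher in both migrasome libraries. The other 5, Col1a1, Col1a2, Col3a1, Pdgfra and Pdgfrb, were lower in both migrasome libraries than in either cytosol library, as with Col1a2 at 1715 and 2287 in migrasome, against 10736 and 7740.0 in cytosol. None of the epithelial, endothelial or erythroid markers passed the filter (summed level of each list at most 10.3), and 1 leukocyte marker did (at most 24.7). The filter was also passed by 4 of 5 neural markers (94.8 and 84.2 in migrasome, 43.4 and 38.4 in cytosol). The part of other cell types in the Nmt values was not tested. These are bulk libraries, in which the number of vesicles or cells and the amount of RNA in each cannot be told apart.

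Nmt2 (ENSMUSG00000026643.16) lies on the plus strand of chromosome 2 from 3284212 to 3328877, and Nmt1 (ENSMUSG00000020936.8) on the plus strand of chromosome 11 from 103028190 to 103068912 (GRCm38, GENCODE M21 annotation). Of 4 annotated Nmt2 transcripts, the one used here, Nmt2-201, has 14 exons and 4461 bases, of which 85 are 5′ UTR, 1590 coding and 2786 3′ UTR. Of 3 annotated Nmt1 transcripts, the one used, Nmt1-201, has 12 exons and 4861 bases, of which 226 are 5′ UTR, 1491 coding and 3144 3′ UTR. Over all annotated transcripts the exons cover 6556 bases in Nmt2 and 5017 bases in Nmt1, the lengths used for levels per kilobase. The coding parts are built alike. Exons 5 to 13 of Nmt2 and exons 3 to 11 of Nmt1 form 9 consecutive pairs of equal length, 1230 bases in all, of which 910 (74.0%) are identical, with a range of 66.4% to 83.7% between pairs.

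The most alike and the least alike of these coding exon pairs are printed to show how far apart the paralogs are in these exons. Sequences are 5′ to 3′ on the plus strand of GRCm38, taken from the GENCODE M21 transcripts, and capitals mark the bases that differ within a pair. In the most alike pair, 77 of 92 bases are identical and 15 differ (Nmt2 exon 7 at chr2:3312662-3312753, Nmt1 exon 5 at chr11:103055198-103055289).
Nmt2 exon 7: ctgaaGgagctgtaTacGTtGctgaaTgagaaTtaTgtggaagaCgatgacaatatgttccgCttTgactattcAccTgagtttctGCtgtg
Nmt1 exon 5: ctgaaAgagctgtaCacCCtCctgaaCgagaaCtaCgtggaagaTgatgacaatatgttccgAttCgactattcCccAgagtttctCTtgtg
In the least alike pair, 79 of 119 bases are identical and 40 differ (Nmt2 exon 6 at chr2:3312456-3312574, Nmt1 exon 4 at chr11:103052206-103052324).
Nmt2 exon 6: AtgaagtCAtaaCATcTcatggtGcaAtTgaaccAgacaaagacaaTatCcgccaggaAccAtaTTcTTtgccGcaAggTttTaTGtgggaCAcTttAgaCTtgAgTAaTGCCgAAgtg
Nmt1 exon 4: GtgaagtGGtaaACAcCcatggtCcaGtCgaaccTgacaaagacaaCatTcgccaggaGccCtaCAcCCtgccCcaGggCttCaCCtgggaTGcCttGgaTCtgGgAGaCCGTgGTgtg

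No stretch of 31 bases was shared between any annotated Nmt2 transcript and any annotated Nmt1 transcript (0 shared). Of the 6621 different stretches of that length in Nmt2, 17 (0.257%) also occur in transcripts of other genes. These few stretches are widespread, since 2748 other genes hold at least 1 of them on either strand. Of the 5043 in Nmt1, 147 (2.91%) do, 114 of them in Dcakd and 33 in the predicted model Gm14679. How multi-mapping reads were handled is not stated in the labels. Only exact matches to annotated transcripts were sought, so the rest of the genome and near matches are not covered. How many reads came from the shared stretches cannot be told from counts per gene, and their part in the Nmt levels was not tested.

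Nmt2 was far more abundant in the migrasome libraries than in the cytosol libraries. Its normalised read count was 15084 and 34065 in migrasome replicates 1 and 2, against 1403 and 1240.0 in cytosol replicates 1 and 2. Both migrasome libraries lay above both cytosol libraries by a wide margin, and the lower migrasome value was still over 10 times the higher cytosol value. These levels rest on 10666 and 25884 reads in migrasome and on 1808 reads in each cytosol library. The mean was 24575 ± 13422 in migrasome and 1321 ± 115 in cytosol (SD, n = 2 each), a ratio of means of 18.6.

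Nmt1 stood at 1308 and 1313 in migrasome replicates 1 and 2, against 841 in both cytosol libraries. The groups did not overlap here either, but the step between them was small and the libraries within a group were nearly equal. The reads behind these levels were 925 and 998 in migrasome, and 1084 and 1226 in cytosol. The mean was 1311 ± 3.74 in migrasome and 841 ± 0.031 in cytosol (SD, n = 2 each), a ratio of means of 1.56. Values of both migrasome libraries above those of both cytosol libraries were found for 33.3% of all tested genes, and values below for 36.3%. Nothing is read from the Nmt genes' own place in these shares, since they were chosen on this contrast.

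**Figure D1:**
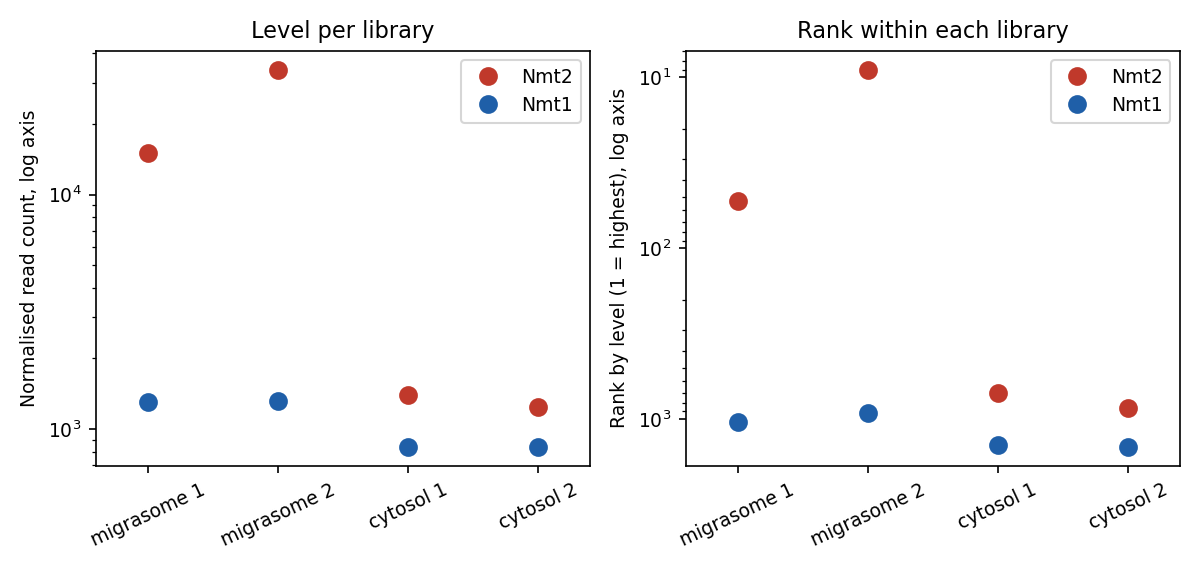
Left, normalised read count of Nmt2 and Nmt1 in each library on a log axis; right, the rank of each gene among the genes with at least 1 read, on a log axis with the highest rank at the top. Each point is 1 library, migrasome replicates 1 and 2 and then cytosol replicates 1 and 2. Nmt2 reaches 15084 and 34065 in migrasome, against 1403 and 1240.0 in cytosol, while Nmt1 stays between 841 and 1313.

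As a share of all reads assigned to genes, Nmt2 took 0.204% (95% Wilson interval 0.200 to 0.208) and 0.501% (0.495 to 0.507) in migrasome replicates 1 and 2. In cytosol replicates 1 and 2 it took 0.0240% (0.0229 to 0.0251) and 0.0210% (0.0201 to 0.0220). The share in migrasome was higher in each library than in either cytosol library, and it differed between the migrasome libraries beyond counting error. Nmt1 took 0.0177% (0.0166 to 0.0189) and 0.0193% (0.0181 to 0.0205) in migrasome, against 0.0144% (0.0136 to 0.0153) and 0.0142% (0.0135 to 0.0151) in cytosol. The intervals of the Nmt1 shares did not overlap between the groups, and those within each group did. Such intervals cover counting error only, since reads counted without molecular identifiers may be copies of 1 molecule.

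Ranked by level among the genes with at least 1 read, Nmt2 was 53 of 14848 in migrasome replicate 1 and 9 of 15171 in migrasome replicate 2. In cytosol it was 703 of 16098 in replicate 1 and 855 of 16082 in replicate 2. In the second migrasome library it stood between Rpl12, a ribosomal protein gene, at 36795 and Ahnak, which encodes a giant scaffold protein, at 30258. In the first it stood between the ribosomal protein gene Rps15a (15175) and the 7SL RNA gene Rn7s6 (14982). In cytosol, where its place was 4.37% and 5.32% from the top, its neighbours were Yme1l1 (1405) and Glrx3 (1402) in replicate 1 and Golph3 (1241) and Park7 (1238) in replicate 2.

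Nmt1 ranked 1040 and 913 in migrasome replicates 1 and 2, against 1407 and 1449 in cytosol replicates 1 and 2. Counted from the top, that placed it within the first 7.004% and 6.02% of detected genes in migrasome, and 8.74% and 9.01% in cytosol. Levels of different genes are comparable only per length. Per kilobase of exon, Nmt2 stood at 2301 and 5196 in migrasome, ranks 186 and 81, and at 214 and 189 in cytosol, ranks 1421 and 1687. Per kilobase, Nmt1 stood at 261 and 262 in migrasome, ranks 1410 and 1282, and at 168 in both cytosol libraries, ranks 1819 and 1891. For both genes the place per kilobase was further from the top than the place by read count in every library, among 14438 to 15627 ranked genes.

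The balance between the paralogs differed between the groups in every library. The ratio of Nmt2 to Nmt1 reads was 11.5 and 25.9 in migrasome replicates 1 and 2, against 1.67 and 1.47 in cytosol replicates 1 and 2. Both migrasome ratios were above both cytosol ratios, and this ratio is taken within a library, so no scaling of a whole library can move it. Per kilobase of exon the ratio was 8.82 and 19.8 in migrasome, and 1.28 and 1.13 in cytosol, so the genes were closer to equal in cytosol.

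Of all reads from the 2 genes, Nmt2 gave 92.0% (95% Wilson interval 91.5 to 92.5) and 96.3% (96.1 to 96.5) in migrasome. It gave 62.5% (60.7 to 64.3) and 59.6% (57.8 to 61.3) in cytosol. The cytosol intervals overlapped each other, while the migrasome intervals overlapped neither each other nor those of cytosol. These intervals too cover counting error only, so they are no test of migrasome against cytosol. The summed level of both genes was 16392 and 35379 in migrasome, against 2243 and 2081 in cytosol.

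On the log2(value + 1) scale the migrasome minus cytosol difference was 4.10 ± 0.34 for Nmt2 and 0.64 ± 0.19 for Nmt1 (SE, limma coefficients), a gap of 3.46 between the paralogs. The median difference of all 10860 tested genes was -0.0043, with quartiles of -0.65 and 0.43. Nmt2 held place 4 of 10860 when the genes were ordered by this difference, and place 3 of the 8221 with a mean of at least 50 in migrasome. Nmt1 held place 1512 of 10860, and place 1211 of 8221.

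The only genes ahead of Nmt2 among the 8221 were the predicted models Gm26870, at 49.5 and 207 in migrasome against 0.776 and 0 in cytosol, and Gm10800, at 11.3 and 166 in migrasome and listed at 0 in both cytosol libraries. Both had few or no reads in cytosol, so the size of their differences is not well determined, and both were higher in migrasome replicate 2 than in replicate 1. Behind Nmt2 came Fgd3, which activates the GTPase Cdc42 (difference 3.72), Mir1983, a microRNA locus (3.497), and Cplx2, which encodes a complexin of neurotransmitter release (3.30). Of these, Fgd3 is the nearest to Nmt2 in abundance, at 3845 and 3747 in migrasome against 263 and 311 in cytosol. Mir1983 had few reads in cytosol, with values of 2.33 and 4.80.

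Taken library by library, each of the 4 migrasome and cytosol pairings gave a large Nmt2 difference. Migrasome replicate 1 exceeded cytosol replicates 1 and 2 by 3.43 and 3.603 on the log2 scale, places 4 and 9 of 8221 genes. Migrasome replicate 2 exceeded them by 4.60 and 4.78, place 3 in both. The Nmt1 difference was 0.64 in all 4 pairings, at places from 873 to 1840. Without migrasome replicate 2 the Nmt2 difference was 3.51, and without migrasome replicate 1 it was 4.69. Leaving out a cytosol library moved it less, to 4.19 without replicate 1 and 4.01 without replicate 2.

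**Figure D2:**
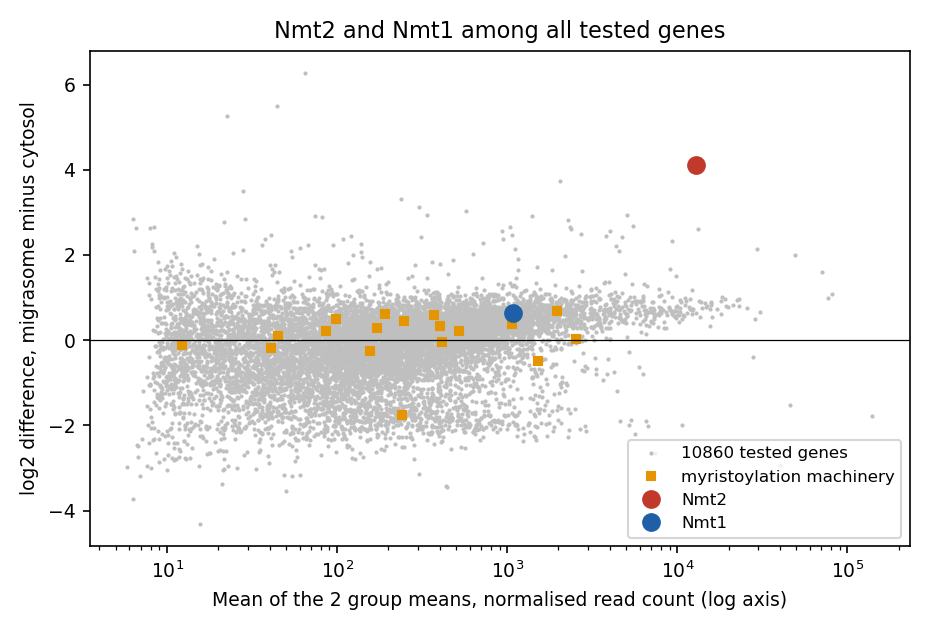
Migrasome minus cytosol difference on the log2(value + 1) scale (vertical axis) against the mean of the group means in normalised read counts (horizontal log axis) for 10860 tested genes, grey. Nmt2 (red) stands at 4.10, apart from the genes of like abundance, whereas Nmt1 (blue, 0.64) lies inside the cloud; squares are the tested myristoylation machinery genes.

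Migrasome replicates 1 and 2 differed more in Nmt2 than in most genes. Replicate 2 was 2.26 times replicate 1, a log2 gap of 1.18. Of 8581 genes compared, 223 (2.60%) had a gap at least as large in either direction in migrasome, 189 of them in the same direction, and the median gap was 0.31. Between the cytosol libraries the Nmt2 gap was -0.18 (replicate 2 minus replicate 1), and 52.0% of genes had one at least as large, with a median of 0.19. The Nmt2 difference between migrasome and cytosol, 4.10, was larger than the gap between the migrasome libraries. The Nmt2 level in migrasome is poorly determined, since it rests on 2 libraries that differ 2.26-fold and whose range does not bound it.

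Nmt1 was the reverse. Its gap was 0.0058 in migrasome and -7.4e-05 in cytosol, and 8491 and 8581 of the 8581 genes had a gap at least as large. Counting error alone at this number of reads would usually give a larger gap, so the SD of 3.74 and of 0.031 printed with the Nmt1 means understates their error, and the SE of 0.19, which borrows from the spread of all genes, is the better guide.

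**Figure D3:**
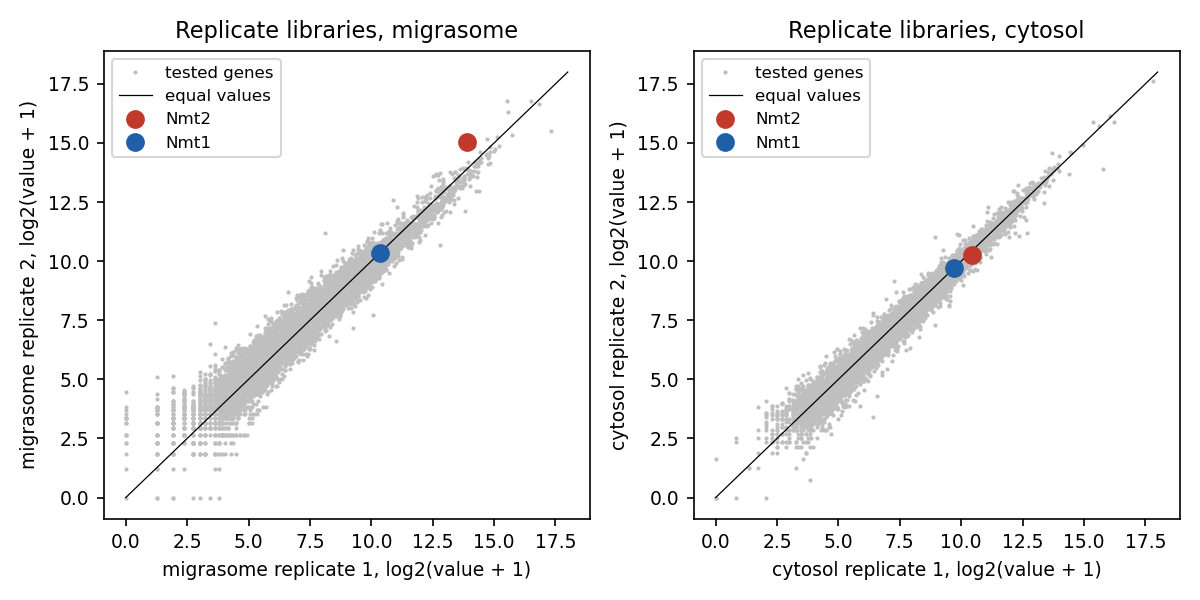
Replicate 2 against replicate 1 on the log2(value + 1) scale for the tested genes, migrasome left and cytosol right; the line marks equal values. Nmt2 (red) lies above the line in migrasome by 1.18 and just below it in cytosol (-0.18), and Nmt1 (blue) lies on the line in both.

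The profile of Nmt2 over the 4 libraries had no close match. Likeness was measured as the Euclidean distance between profiles of log2(value + 1) centred over the 4 libraries, among 10105 genes with predicted models left out. The profiles were not scaled, so the lack of a close match follows in part from the large difference for which Nmt2 was chosen. The nearest to Nmt2 were Mir1983 (distance 0.920), Fgd3 (0.983), Cplx2 (1.20), Net1, an exchange factor for the GTPase RhoA (1.46), and mt-Nd5, a mitochondrially encoded subunit of respiratory complex I (1.54). Of these, Mir1983 also had a higher value in migrasome replicate 2 (72.4) than in replicate 1 (32.5), against 2.33 and 4.80 in cytosol. Its 2.33 in cytosol replicate 1 is the value of 3 reads, so its distance is not well determined. Net1 had levels of 2465 and 2448 in migrasome, against 344 and 311 in cytosol, with almost no gap between the migrasome libraries.

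The genes nearest to Nmt1 were at far smaller distances, which follows in part from the smaller difference of Nmt1. They were Ndrg3 (distance 0.0093), the ribosomal protein gene Rps13 (0.026), Ikbkb, a kinase of the NF-κB pathway (0.049), Guf1, a mitochondrial translation factor (0.051), and Odc1, the ornithine decarboxylase of polyamine synthesis (0.065). Ndrg3 stood at 528 in both migrasome libraries, against 337 and 340.2 in cytosol. Rps13 had the same shape at a higher level, at 8020.0 and 8232 in migrasome and 5211 and 5160.4 in cytosol.

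The annotated neighbours of Nmt2 did not share its level. Gm22005, a small nuclear RNA locus inside an Nmt2 intron on the other strand, had a value of 0 in all 4 libraries. Rpp38, a ribonuclease P subunit gene that ends 71 bases beyond Nmt2 on the other strand, stood at 11.3 and 65.8 in migrasome, against 59.7 and 87.1 in cytosol. Fam171a1, the nearest coding gene before it, stood at 313 and 483 in migrasome, against 707 and 575 in cytosol. Both coding neighbours were thus at lower levels in each migrasome library than in the cytosol library with the higher value, and far below Nmt2 in migrasome.

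Nmt1 shares 144 exon bases with Dcakd, which runs on the other strand and had 113 and 117 in migrasome, against 160 and 82.3 in cytosol. No source here states whether counting used strand, so reads of these bases cannot be assigned to one gene with certainty. The other gene that overlaps Nmt1, the long non-coding RNA Gm26668, had a value of 0 in all libraries. Plcd3, a phospholipase C gene beyond its end, had 69.3 and 64.5 in migrasome, against 92.3 and 98.8 in cytosol.

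No other gene of the myristoylation machinery had a difference of the size of that of Nmt2. Since Nmt2 was chosen for its difference and held place 4 of 10860, hardly any gene could, and nothing is read from this about the list. Of all 10860 tested genes, 8.68% were called higher in migrasome and 17.7% lower by limma at a Benjamini-Hochberg adjusted p of 0.05. Of 19 listed genes that prepare the protein or the fatty acid, carry myristoylated proteins, remove the lipid or destroy proteins that lack it, 18 were tested, 1 was higher, 1 was lower and 16 were not called. Their median difference was 0.21, beside -0.0043 over all tested genes, and the highest was 0.68.

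The one called higher was Metap2, a methionine aminopeptidase that exposes the glycine for Nmt1 and Nmt2. It stood at 2653 and 2181 in migrasome, against 1422 and 1583 in cytosol (log2 difference 0.68 ± 0.21 SE, limma adjusted p = 0.038). Its call was lost without migrasome replicate 1 (limma adjusted p = 0.063), without cytosol replicate 1 (0.29) and without cytosol replicate 2 (0.17), and with each other scaling tried (0.056 to 0.15). The other aminopeptidase, Metap1, had 581 and 534 in migrasome, against 455 and 507 in cytosol, and was not called. The one called lower was Acsl3, an acyl-CoA synthetase of the endoplasmic reticulum and lipid droplets, at 113 and 105 in migrasome against 397 and 346 in cytosol (-1.75 ± 0.22, limma adjusted p = 0.00071).

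Suppliers of the substrate and helpers of the enzyme were otherwise not called. Fasn, the fatty acid synthase, stood at 2731 and 2418 in migrasome and 2638 and 2407 in cytosol, a difference of 0.03 whose sign turned with another scaling. Acbd6, which binds acyl-CoA and stimulates the myristoyltransferases, had 252 and 212 in migrasome, against 158 and 142 in cytosol, and missed the threshold (limma adjusted p = 0.070). The carriers of myristoylated cargo Unc119 (102 and 129 in migrasome, 72.9 and 89.8 in cytosol) and Unc119b (378 and 442 in migrasome, 422 and 419 in cytosol) were not called. Zyg11b and Zer1, which recognise a free N-terminal glycine for protein breakdown, were not called either.

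mRNAs of proteins known to be N-myristoylated went both ways. Of 56 listed, 48 were tested, 5 were higher, 4 were lower and 39 were not called, shares of 10.4% and 8.33% beside 8.68% and 17.7% of all tested genes. Their median difference was 0.19. Cyb5r3, a reductase of cytochrome b5 and the most changed, stood at 4525 and 4687 in migrasome, against 845 and 787 in cytosol (2.50 ± 0.20, limma adjusted p = 0.00035). Called higher with smaller differences were Rnf11, a ubiquitin ligase (0.75), the proteasome ATPase gene Psmc1 (0.71), the AMP-activated kinase subunit gene Prkab2 (1.21) and Marcks (1.58), which had a low level of 17.0 and 19.7 in migrasome and 5.43 and 5.49 in cytosol.

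Those called lower were Lnpk, which encodes a protein of endoplasmic reticulum junctions (-1.64), and the tyrosine kinases Yes1 (-0.99), Abl1 (-0.96) and Lyn (-0.85). Src, the founding member of the kinase family of Yes1 and Lyn, had 143 and 165 in migrasome, against 199 and 290.1 in cytosol, and was not called. The most abundant substrates by the mean over the 4 libraries, Gnai3 (7194 and 6658 in migrasome, 5878 and 6575 in cytosol) and Arf1 (4006 and 3701 in migrasome, 2858 and 3003 in cytosol), were not called. The calls of Rnf11, Psmc1, Prkab2, Marcks, Yes1 and Lyn did not survive the loss of either cytosol library, that of Abl1 was lost without cytosol replicate 2, that of Psmc1 also without migrasome replicate 1 and that of Prkab2 also without migrasome replicate 2, with limma adjusted p-values between 0.053 and 0.26. The number of listed genes called changed when a library was left out, as did the number over all tested genes, so nothing is read from that change.

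Among enzymes that attach or remove other protein lipids, most of the called genes were lower. Of 45 listed, 37 were tested, 2 (5.41%, beside 8.68% of all tested genes) were higher, 13 (35.1%, beside 17.7%) were lower and 22 were not called, with a median difference of -0.51. The lower ones included 9 of 17 tested Zdhhc palmitoyltransferases, which are membrane proteins, with none higher and a median of -0.72. Zdhhc5 stood at 274 and 286 in migrasome, against 608 and 586 in cytosol (-1.09 ± 0.20, limma adjusted p = 0.0041), and Zdhhc20 at 106 and 121 in migrasome, against 413 and 368 in cytosol (-1.77 ± 0.22). Rce1 (-1.55) and Icmt (-0.92), which trim and methylate prenylated proteins at the endoplasmic reticulum, and Ppt1, a lysosomal thioesterase that removes palmitate (-1.42), were lower too.

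Of the 7 tested genes of prenylation, Pggt1b (0.73) and Chm (0.81) were higher and none was lower, with a median of 0.32. Of all tested genes 8.68% were higher and 17.7% lower, and with so few prenylation genes nothing is read from their counts. Pggt1b encodes the beta subunit of an enzyme that attaches geranylgeranyl lipids and Chm an escort protein for Rab prenylation. Leaving out migrasome replicate 1 or either cytosol library ended both calls, with limma adjusted p-values between 0.085 and 0.21. Icmt missed the threshold in the fit without cytosol replicate 2 (limma adjusted p = 0.091). As over all tested genes, the number of listed genes called changed when a library was left out, and nothing is read from that change.

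The listed enzymes that act on a protein's N-terminus, with their partners, included 3 that were higher. Of 15 listed, 13 were tested, 3 (23.1%, beside 8.68% of all tested genes) were higher, none was lower (17.7% of all) and 10 were not called, with a median difference of 0.32. Naa50, an N-terminal acetyltransferase, stood at 7617 and 3972 in migrasome, against 2596 and 1759 in cytosol (1.36 ± 0.32, limma adjusted p = 0.013), and like Nmt2 its migrasome libraries lay far apart, but with replicate 1 the higher. Naca (0.75) and Btf3 (0.72) encode the subunits of the nascent polypeptide-associated complex. Leaving out either cytosol library ended both calls, with limma adjusted p-values between 0.14 and 0.41, as did quantile normalization. Among the alternatives run, Naa50 missed the threshold in the fit without cytosol replicate 2 alone, where the limma adjusted p was 0.056.

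**Figure D4:**
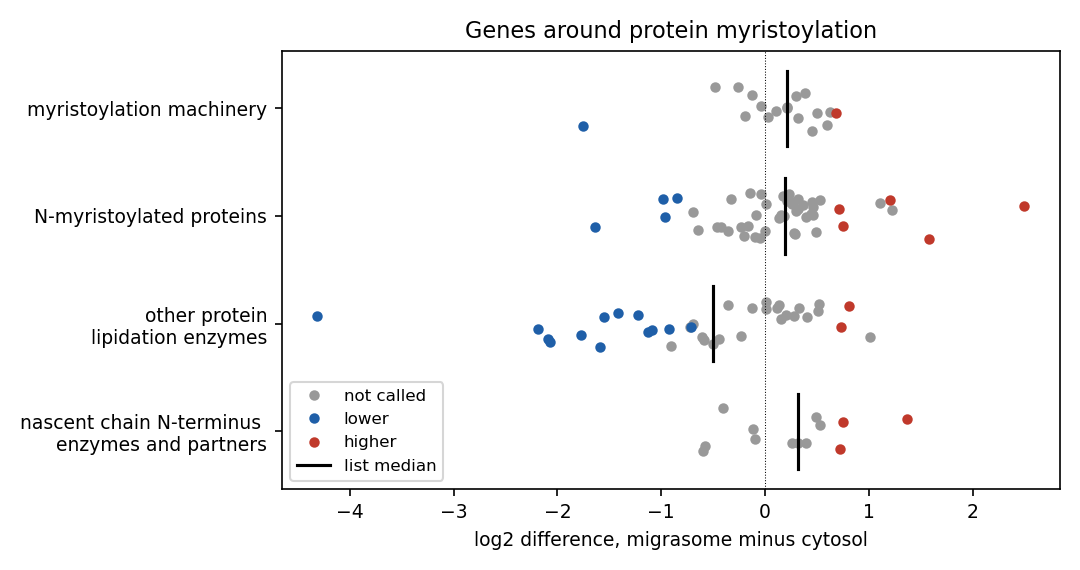
Migrasome minus cytosol difference on the log2(value + 1) scale for each tested gene of the gene lists, 1 point a gene, coloured by its limma call (red higher, blue lower, grey not called); the black bar is the list's median. Medians are 0.21, 0.19, -0.51 and 0.32 from top to bottom, and Nmt2, chosen for its difference of 4.10, is in none of the lists.

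The split between Nmt2 and Nmt1 was set beside that of other pairs of related genes from the same lists. Of 18 pairs listed, 17 had both genes tested. The Nmt pair had the largest difference between its genes' log2 differences (3.46), while the median size over the other pairs was 0.45. The next was Ppt1 and Ppt2 (2.89), which rests on 1 and 0 Ppt2 reads in migrasome against 31 and 54 in cytosol, so that its size is not well determined. With edgeR and DESeq2 on whole reads that pair came first, at 3.84 and 4.05, and the Nmt pair took place 2.

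After the Nmt and Ppt pairs came Prkab1 and Prkab2 (-1.56), Lypla1 and Lypla2, thioesterases that remove palmitate (1.13), and Abl1 and Abl2 (-0.79). Prkab2 had few reads, 34 and 75 in migrasome and 33 and 49 in cytosol. The split of the Lypla pair was 0.51 without migrasome replicate 1 and 1.74 without migrasome replicate 2. The smallest split was that of Prkaca and Prkacb, the catalytic subunits of protein kinase A (-0.0029). The ratio within a library did not overlap between migrasome and cytosol for 13 of the 17 pairs, beside the 33.3% and 36.3% of single genes whose migrasome values lay wholly above or wholly below those of cytosol, so nothing is read from that count. The Nmt pair was chosen with its split known, so its place is a description.

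**Figure D5:**
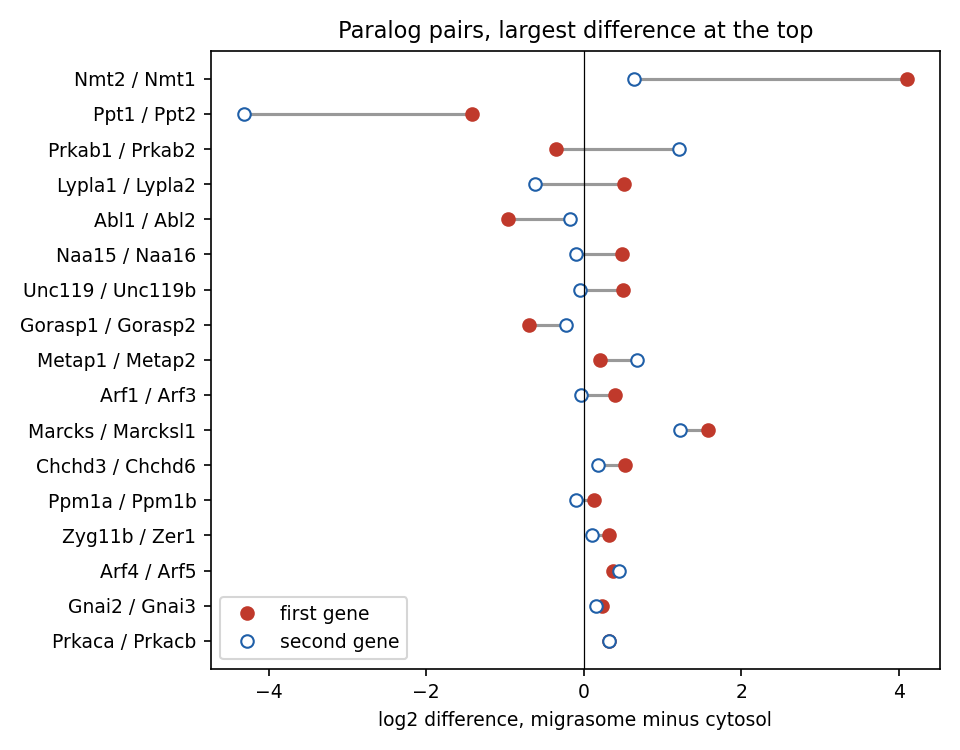
Migrasome minus cytosol difference on the log2(value + 1) scale of both genes of each tested pair, joined by a line; filled points are the first gene named and open points the second. The line from Nmt1 (0.64) to Nmt2 (4.10) is the longest, and that of Prkaca and Prkacb has almost no length.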

How the data were processed

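Total RNA of purified migrasomes and of cytosol was sequenced in 2 libraries each, grouped by the sample type in the labels. The deposited signal is a normalised read count: reads per gene over a size factor that the authors computed for each library, as the values show. The submitters' processing notes list DESeq, HTSeq, STAR, FastQC, Trimmomatic and cutadapt, with no version, and GRCm38. They give no annotation, strand setting or rule for multi-mapping reads. Whole reads were recovered for 100% of values, within a tolerance of 0.001. Replicates differed beyond sampling noise (chi-square per degree of freedom 27.9 in migrasome, 17.6 in cytosol) and were kept apart.

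Genes reaching 10 in 2 or more libraries were fitted on the log2(value + 1) scale, on which changes of low genes come out too small, with limma 3.58.1 (eBayes with a trend, R 4.3.3, no replicate block, Benjamini-Hochberg threshold 0.05, two-sided). edgeR 4.0.16 and DESeq2 1.42.0 on the recovered reads were alternatives, as were other pseudocounts, filters, scalings and variance models, a replicate block and each library left out. The test was checked on simulated counts in which all genes had the same spread beyond counting error. That check does not give the rate of false calls in these libraries. Exon lengths (47240 symbols), exon sequences and shared stretches of 31 bases came from GENCODE M21, and Lnpk was matched to its older symbol Lnpk1. Figures were drawn with matplotlib 3.10.9.

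The genes and lists were chosen with earlier results of these data known. The text names Nmt1 and Nmt2, their overlapping and nearest genes, the 5 genes with the most alike profiles, the 5 largest differences at a migrasome mean of at least 50, called members of each list (up to 8, by abundance), its 2 most abundant members and the genes of the pairs. Acbd6, Unc119, Unc119b, Zyg11b, Zer1, Metap1 and Src are named for their role, as are genes next to Nmt2 in rank, and some genes the rule covers are not printed.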

Additional observations from a re-analysis of the deposited data

How the results depend on the processing

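The Nmt2 difference stayed between 3.51 and 4.69 under every alternative run, and that of Nmt2 minus Nmt1 between 2.88 and 4.05. The Nmt1 difference was 0.63 with a pseudocount of 10, 0.37 with equal library totals, 0.57 with TMM, 0.45 with quantile normalization, 0.63 with edgeR and 0.67 with DESeq2, and 0.64 in each fit without 1 library. Equal totals moved the median of all genes by -0.27 and quantile normalization by 0.12. By level per kilobase, Nmt2 ranked 186, 81, 1421 and 1687 and Nmt1 1410, 1282, 1819 and 1891 in migrasome 1 and 2 and cytosol 1 and 2. The Nmt pair took place 2 with edgeR and DESeq2. Genes called higher were 393 with no filter, 322 with equal totals, 483 without a trend and 231 to 2085 without 1 library; genes called lower were 1147 to 2800 without 1 library.

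Higher calls in the machinery list were 0 with no filter, equal totals, TMM and no trend, 3 with quantile normalization and 0 to 4 without 1 library, and lower calls 2 with equal totals and quantile normalization. For N-myristoylated proteins, higher calls were 2 with no filter, 3 with a mean of at least 50, TMM or no trend, 1 with equal totals and 1 to 11 without 1 library, and lower calls 7 with equal totals, 2 without a trend and 1 to 5 without 1 library. For other lipidation enzymes, higher calls were 0 with no filter, equal totals, TMM and no trend and 0 to 6 without 1 library, and lower calls 19 with equal totals and 8 to 18 without 1 library. For N-terminus factors, higher calls were 1 with no filter, equal totals and no trend and 0 to 5 without 1 library, and lower calls 3 with equal totals, 1 with TMM and 0 to 2 without 1 library. Signs turned for Fasn (-0.24 with equal totals, -0.044 with TMM, -0.38 with quantile normalization, -0.060 without migrasome replicate 1, -0.038 without cytosol replicate 2), Gnai3 (-0.12 with equal totals, -0.47 with quantile normalization) and Arf1 (-0.10 with quantile normalization). Equal totals ended the higher calls of Metap2, Rnf11, Psmc1, Prkab2, Marcks, Pggt1b, Chm, Naca and Btf3, and quantile normalization those of Metap2, Rnf11, Psmc1, Naca and Btf3 and the lower calls of Yes1 and Lyn. The causes were not tested.

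The labels do not say that replicate numbers pair the libraries, and deviations of same-numbered libraries correlated at 0.32 over 8581 genes. With a replicate block, 1802 genes were called higher, 3 in the machinery list, 5 among other lipidation enzymes, and 2 N-terminus factors lower. With 2 libraries a group and counting error below the spread of Nmt2 between migrasome libraries, the number of libraries, not depth, limits its value.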
